A study of Mus musculus with 10 samples.

Results

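The expression of 9 genes that carry cholesterol synthesis from the closing of the sterol ring to cholesterol was examined in mouse liver. The genes were Lss, Cyp51, Tm7sf2, Msmo1, Nsdhl, Hsd17b7, Ebp, Sc5d and Dhcr7, taken by symbol for their place in the pathway, and they are 9 of the 24421 genes listed in the count table. All 9 were among the 11092 genes that passed the filter on low counts, and none had fewer than 53 counts in any library. The livers came from 10 male wild-type C57BL/6 mice (C57BL/6 J in the study's methods) aged 21 weeks that fed freely. The 5 Chow mice ate standard chow, and the 5 TM5614 mice ate the same chow with TM5614 mixed in at 20 mg/kg/day over 10 days. The compound is a small molecule, active by mouth, that inhibits plasminogen activator inhibitor-1. Each mouse gave 1 poly(A) RNA library from liver tissue, which the labels describe as frozen and the study's methods as a portion kept in RNAlater. The question was whether, and how evenly, these genes differed between the groups.

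Cholesterol is built in the endoplasmic reticulum from acetyl-CoA through a linear chain that ends in squalene epoxide, which Lss folds into lanosterol, the first sterol. Lanosterol then loses methyl groups and has double bonds moved or reduced, in steps that use oxygen and electrons passed on by cytochrome partners. The liver is a main site of this synthesis, and most genes of the pathway are textbook targets of the transcription factor SREBP-2, the product of Srebf2, which is released from the membrane when sterols are scarce. SREBP factors are known to act beside NF-Y, which binds CCAAT boxes, and Sp1, which binds GC boxes.

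Library totals ran from 6398335 to 10874955 counts. Chow replicate 2 stood apart, as a trend on GC content and gene length accounted for 46.2% of the variance of its deviations from the median of all libraries, against 0.748% to 11.7% in the other 9 libraries. In TM5614 replicate 2, 12 skeletal muscle genes took 0.490% of the counts, against at most 0.00992% elsewhere. Results that rest on these libraries are therefore given with and without them. Of the 10 hepatocyte markers all were tested and 0 passed, and their summed level was 114800 to 134000 CPM (counts scaled to a common library size) in Chow and 107700 to 123400 CPM in TM5614. Bulk liver RNA was measured, so fewer cells of a type and less RNA per cell cannot be told apart.

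TM5614 livers held less mRNA of 6 of the 9 genes, and of none did they hold significantly more. The falls were largest in Msmo1, Nsdhl and Cyp51, followed by Dhcr7, Lss and Tm7sf2, while Ebp, Sc5d and Hsd17b7 did not pass the threshold. Msmo1, Nsdhl and Cyp51 serve the removal of methyl groups, but so does Hsd17b7, which changed least with all libraries (log2 fold change -0.15). The 6 genes are to be read against 2.77% of all genes tested that were called lower (edgeR quasi-likelihood test, adjusted p under 0.05). In 7 of the 9, every TM5614 library lay below every Chow library, which held for 4.87% of the genes tested. The median log2 fold change of the 9 was -1.24, beside 0.01 over all genes tested. Together the 9 genes took 1357 ± 239 CPM in Chow and 669 ± 72.2 CPM in TM5614 (mean ± SD, n = 5 each), and the lowest Chow sum, 1080 CPM in replicate 4, was above the highest TM5614 sum, 760.5 CPM in replicate 5.

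**Figure D1:**
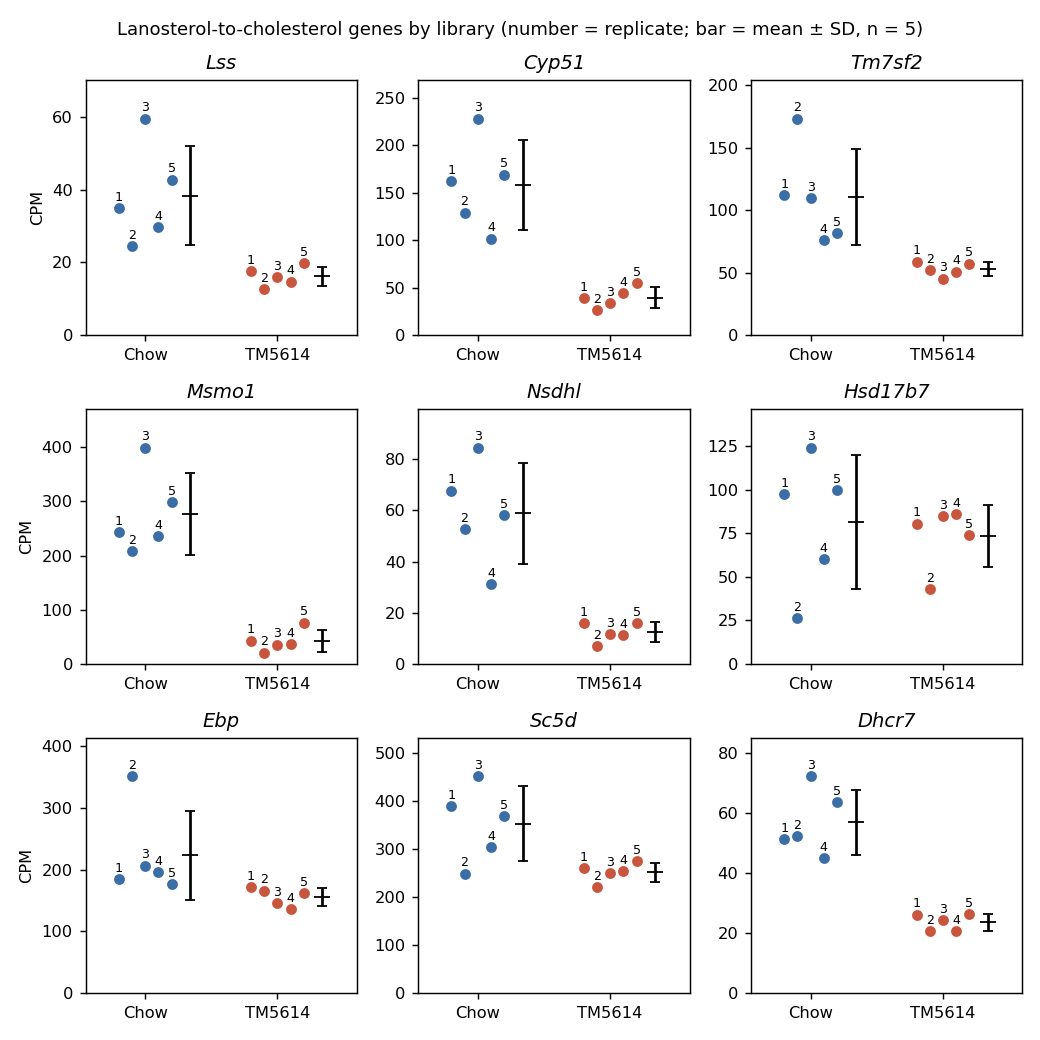
CPM of each of the 9 genes in each library, 1 panel a gene with its own axis from 0, in which points are libraries, numbers are replicates and bars are the mean ± SD of 5. The groups are apart in every panel but those of Hsd17b7 and Sc5d, with Chow replicate 3 highest in 7 panels and Chow replicate 2 lying far above the rest for Ebp and lowest for Hsd17b7.

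Lss (chromosome 10, 76531588 to 76557138, plus strand, coordinates of GRCm38, the assembly that mm10 names) encodes lanosterol synthase. Its level was 34.9, 24.5, 59.5, 29.8 and 42.8 CPM in Chow replicates 1 to 5, and 17.7, 12.7, 16.1, 14.7 and 19.7 CPM in TM5614 replicates 1 to 5. The groups did not overlap, although the Chow libraries spread over a 2.43-fold range. Lss fell by 57.8% (log2 fold change -1.24, SE 0.22, edgeR adjusted p = 0.00801). An antisense gene, 4930483K19Rik, lies within Lss and had 7 counts over all libraries.

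Cyp51 (chromosome 5, 4081145 to 4104746, minus strand) encodes the cytochrome P450 that removes the first methyl group of lanosterol. It stood at 162, 129, 228, 102 and 169 CPM in the Chow libraries and at 38.9, 26.2, 33.4, 44.2 and 54.7 CPM in those of TM5614. The lowest Chow library was above the highest TM5614 library. Cyp51 fell by 74.98% (log2 fold change -1.999, SE 0.24, edgeR adjusted p = 0.000740). Its exons overlap Akap9 on the opposite strand over 166 bases, and whether strand was used in counting is not given in the sources used here.

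Tm7sf2 (chromosome 19, 6062821 to 6068373, minus strand) encodes a sterol reductase that acts on the double bond left by Cyp51. Chow replicates 1 to 5 had 112, 173, 110, 75.9 and 81.9 CPM, and TM5614 replicates 1 to 5 had 58.9, 52.2, 45.2, 50.8 and 57.3 CPM. The groups were separate, with Chow replicate 2 the highest. Tm7sf2 fell by 52.2% (log2 fold change -1.07, SE 0.20, edgeR adjusted p = 0.0111), and stood at -0.85 on the log2 fold scale without Chow replicate 2 (edgeR adjusted p = 0.00140). It shares 532 bases with Vps51 on the same strand. Lbr, a receptor of the nuclear membrane with the same reductase activity, ranged from 5.69 to 11.4 CPM in Chow and from 4.45 to 8.11 CPM in TM5614, and missed the threshold (log2 fold change -0.30, SE 0.22, edgeR adjusted p = 0.442).

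The next 3 genes encode the enzymes of the complex that strips the remaining methyl groups from the sterol ring. Msmo1 (chromosome 8, 64718139 to 64733792, minus strand), the oxidase that opens this cycle, had 243, 209, 399.5, 236 and 298 CPM in Chow replicates 1 to 5. In TM5614 replicates 1 to 5 it had 43.2, 21.2, 35.9, 36.4 and 76.5 CPM. The highest TM5614 library was far below the lowest Chow library, and TM5614 replicate 2 was the lowest of all. Msmo1 fell by 84.6%, the steepest fall of the 9 (log2 fold change -2.70, SE 0.31, edgeR adjusted p = 0.000602).

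Nsdhl (chromosome X, 72918557 to 72958514, plus strand) encodes the dehydrogenase that releases the oxidised carbon. Chow replicates 1 to 5 had 67.7, 52.6, 84.5, 31.2 and 58.0 CPM, and TM5614 replicates 1 to 5 had 16.1, 6.9, 11.8, 11.2 and 16.0 CPM. No TM5614 library reached the lowest Chow library. Nsdhl fell by 78.9% (log2 fold change -2.25, SE 0.28, edgeR adjusted p = 0.000945).

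Hsd17b7 (chromosome 1, 169949535 to 169969241, minus strand) encodes the ketosteroid reductase that closes the cycle. Chow replicates 1 to 5 had 97.3, 26.2, 124, 60.05 and 99.5 CPM, and TM5614 replicates 1 to 5 had 80.6, 42.8, 84.6, 85.9 and 73.9 CPM. The 2 groups overlapped, since 3 Chow libraries were above all TM5614 libraries and replicate 2 was the lowest library of both groups. It was far from the threshold (log2 fold change -0.15, SE 0.34, edgeR adjusted p = 0.830). The estimate rested on single libraries, being -0.38 (SE 0.21, edgeR adjusted p = 0.317) without Chow replicate 2 and 0.06 (SE 0.34, edgeR adjusted p = 0.940) without Chow replicate 3. Without TM5614 replicate 2 the estimate was -0.0043 (SE 0.33, edgeR adjusted p = 0.994). Chow spread over a 4.73-fold range in this gene, the widest of the 9. Whether a fall of the size estimated for Ebp or Sc5d could be detected at this spread was not tested.

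Ebp (chromosome X, 8185329 to 8193512, minus strand) encodes the isomerase that shifts a ring double bond. Chow replicates 1 to 5 had 185, 351, 207, 197 and 176 CPM, and TM5614 replicates 1 to 5 had 171, 166, 145, 136 and 162 CPM. Every TM5614 library lay below every Chow library, but narrowly, as the nearest libraries were at 176 and 171 CPM. Ebp missed the threshold (log2 fold change -0.52, SE 0.18, edgeR adjusted p = 0.139). Chow replicate 2 was 351 CPM where the other Chow libraries were 176 to 207 CPM, and without it Ebp was at -0.30 on the log2 fold scale (SE 0.09, edgeR adjusted p = 0.0511).

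Sc5d (chromosome 9, 42251595 to 42264256, minus strand) encodes a desaturase that adds a ring double bond with electrons from cytochrome b5. It had 390.3, 249.1, 452, 305 and 368 CPM in Chow replicates 1 to 5 and 259.6, 221, 251, 254 and 274 CPM in TM5614 replicates 1 to 5. Only Chow replicate 2, at 249.1 CPM, reached into the TM5614 range. With all libraries Sc5d missed the threshold (log2 fold change -0.49, SE 0.15, edgeR adjusted p = 0.0956). Without Chow replicate 2 it passed (log2 fold change -0.59, SE 0.11, edgeR adjusted p = 0.00543), and the groups no longer overlapped.

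Dhcr7 (chromosome 7, 143823145 to 143848410, plus strand) encodes the reductase that acts after Sc5d and yields the finished ring system. Chow replicates 1 to 5 had 51.3, 52.4, 72.2, 45.0 and 63.8 CPM, and TM5614 replicates 1 to 5 had 26.1, 20.5, 24.3, 20.7 and 26.3 CPM. The groups were well apart, and the Chow range of 1.61-fold was the narrowest of the 9. Dhcr7 fell by 58.6% (log2 fold change -1.27, SE 0.15, edgeR adjusted p = 0.000676).

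**Figure D2:**
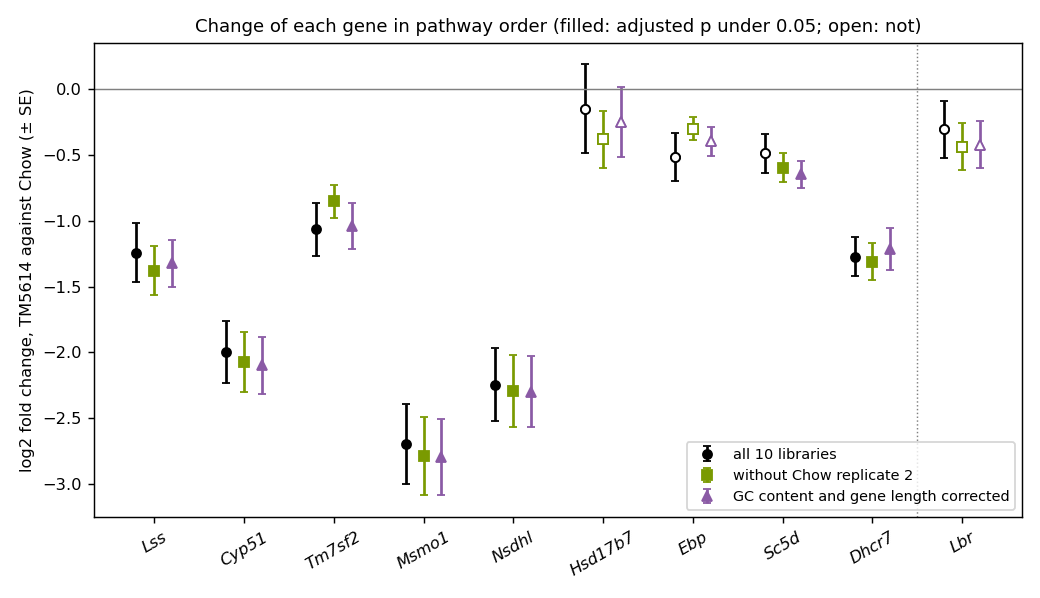
Log2 fold change of TM5614 against Chow with its SE for the 9 genes in pathway order and, right of the dotted line, for Lbr, estimated from all 10 libraries, without Chow replicate 2 and after a GC content and length correction, where filled symbols passed an adjusted p of 0.05. Msmo1, Nsdhl and Cyp51 lie lowest under all 3, Sc5d is open with all libraries and filled in the others, and Hsd17b7 and Ebp are open in all 3.

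The libraries did not rank alike across the 9 genes. Chow replicate 3 was the highest Chow library in 7 of them, all but Tm7sf2 and Ebp, in which Chow replicate 2 was highest. Chow replicate 2 was the lowest Chow library for Lss, Msmo1, Hsd17b7 and Sc5d, and Chow replicate 4 for Cyp51, Tm7sf2, Nsdhl and Dhcr7. In the treated group, TM5614 replicate 2 was lowest in 7 genes, all but Tm7sf2 and Ebp. The transcripts of Tm7sf2 and Ebp had GC contents of 51.0% and 50.9%, and those of Hsd17b7 and Sc5d had 43.9% and 42.9%, at the low end of the 9, while Dhcr7, with 52.8%, was not raised in Chow replicate 2. When the trend on GC content and length was taken out of each library, 7 of the 9 were called lower (3.84% of all genes), Sc5d among them (log2 fold change -0.65, edgeR adjusted p = 0.00243), and Ebp was just short (log2 fold change -0.40, edgeR adjusted p = 0.0501). Leaving Chow replicate 2 out also gave 7 of 9 (5.61% of all genes), as did DESeq2 on all libraries (5.04%), and limma-voom with sample quality weights gave 8 (7.25%). Hsd17b7 was called under none of these.

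**Figure D3:**
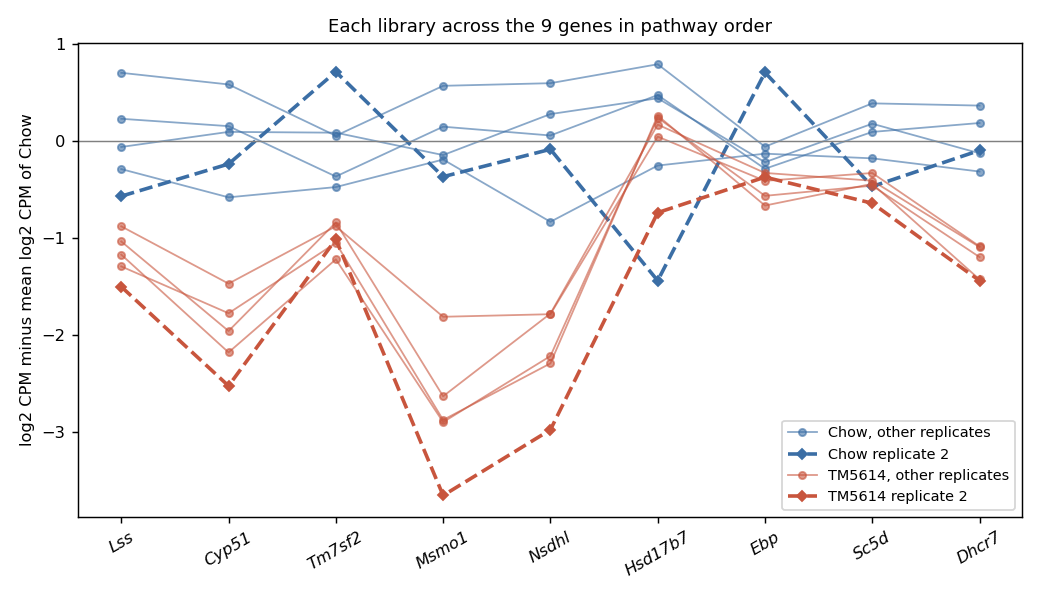
Log2 CPM of each library minus the mean of the Chow libraries, across the 9 genes in pathway order, 1 line a library, with both replicate 2 libraries dashed. Each TM5614 line is lowest at Msmo1, where these lines spread from -3.66 to -1.82, and lies within the Chow range at Hsd17b7, and the line of Chow replicate 2 peaks at Tm7sf2 and Ebp and drops at Hsd17b7.

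Whether the genes changed by different amounts was tested on the log2 ratio of 2 genes within a library, which does not depend on how libraries are scaled. All 36 pairs went through a two-sided permutation test of the group labels, exact over all labellings of the 10 libraries, and 25 pairs passed after adjustment over the 36. For Msmo1 over Hsd17b7, enzymes of the same complex, the log2 ratio was 1.91 ± 0.64 in Chow and -0.86 ± 0.53 in TM5614 (SD, n = 5 each). The ratio changed by -2.77 without overlap (exact permutation p = 0.00794, the smallest this test can give, adjusted p = 0.0130). With all 10 libraries this was the largest change of any pair. Without Chow replicate 2, the edgeR log2 fold change was -0.38 for Hsd17b7 and -0.30 for Ebp, so the first place of this pair rested on that library. Nsdhl over Hsd17b7 changed by -2.21 (exact permutation test, adjusted p = 0.0130). Msmo1 and Nsdhl themselves were not separated at the threshold, with a change of -0.56 in their log2 ratio (exact permutation test, adjusted p = 0.0612).

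Ratios to Cyp51 set off the strong falls from the moderate ones. Dhcr7 fell less than Cyp51, as the log2 ratio of Cyp51 to Dhcr7 changed by -0.73 (exact permutation test, adjusted p = 0.0130), and so did Lss, with a change of 0.81 for Lss over Cyp51 (exact permutation test, adjusted p = 0.0130). Msmo1 fell more than Cyp51, with a change of 0.79 for Cyp51 over Msmo1 (exact permutation test, adjusted p = 0.0130). Cyp51 and Nsdhl did not differ at the threshold, with a change of 0.23 (exact permutation test, adjusted p = 0.200). Among the moderate falls, Lss and Dhcr7 differed by 0.07 and Tm7sf2 and Dhcr7 by 0.25, neither beyond the spread of the libraries (exact permutation test, adjusted p = 0.743 and 0.411). Sc5d changed less than 6 of the other genes and Ebp less than 4 of them, while Ebp and Sc5d had a ratio that moved by -0.01 (exact permutation test, adjusted p = 1.0).

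**Figure D4:**
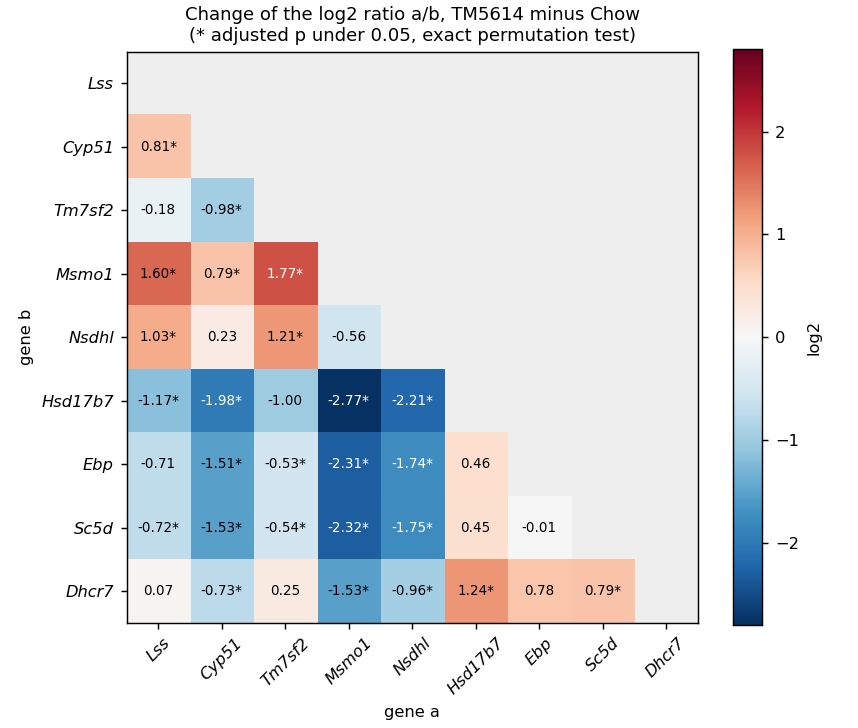
Change of the log2 ratio of gene a (columns) to gene b (rows) between TM5614 and Chow for the 36 pairs, blue where a fell more than b and red where b fell more, with a star where the adjusted p of the exact permutation test is under 0.05. The darkest cells are those of Msmo1 over Hsd17b7 (-2.77), over Sc5d (-2.32) and over Ebp (-2.31).

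Levels were compared between genes on the deposited FPKM scale, which divides by gene length. In Chow the order of mean FPKM was Sc5d at 155 ± 34.7, Msmo1 at 150.1 ± 41.3, Ebp at 126.5 ± 41.2, Tm7sf2 at 73.9 ± 25.9, Cyp51 at 35.9 ± 10.9, Nsdhl at 26.2 ± 8.80, Dhcr7 at 19.98 ± 3.85, Hsd17b7 at 17.6 ± 8.33 and Lss at 5.98 ± 2.14 (SD, n = 5). The ranges of neighbouring members in this order overlapped in every case, although Ebp was above Tm7sf2, and Tm7sf2 above Cyp51, in each of the 5 libraries. Lbr stood below all of them at 2.43 ± 0.613 FPKM, far under Tm7sf2, which shares its reaction. In TM5614, Sc5d led the 9 at 110.5 ± 9.35 FPKM, followed by Ebp at 88.2 ± 8.18 and Tm7sf2 at 35.2 ± 3.69. Msmo1 was next at 23.1 ± 11.2 FPKM, ahead of Hsd17b7 at 15.9 ± 3.93, Cyp51 at 8.95 ± 2.50, Dhcr7 at 8.26 ± 1.03, Nsdhl at 5.52 ± 1.73 and Lss at 2.52 ± 0.431 (SD, n = 5). Among neighbouring members the ranges of Ebp and Tm7sf2 were separate and those after them overlapped. The mean FPKM of Hsd17b7 was above that of Nsdhl in TM5614 and below it in Chow. In CPM, which is not divided by gene length, Hsd17b7 was above Nsdhl in Chow (81.4 and 58.8) and in TM5614 (73.6 and 12.4). The order of genes therefore depends on the lengths behind the FPKM values.

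**Figure D5:**
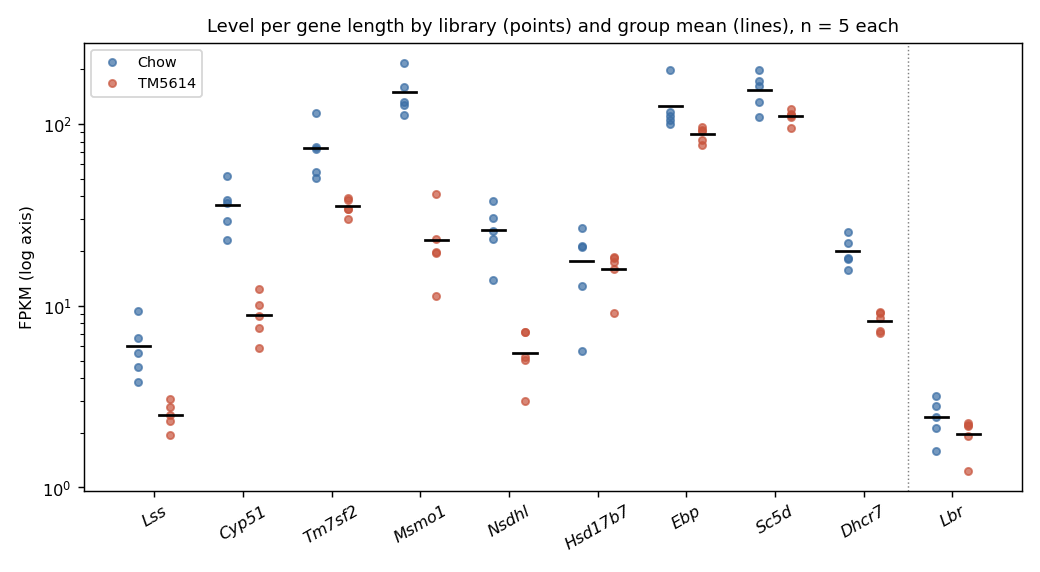
FPKM of each library (points) and group mean (lines, n = 5) on a log axis for the 9 genes in pathway order and for Lbr right of the dotted line. Msmo1 is near Sc5d and Ebp in Chow and well under them in TM5614, and Lss is the lowest of the 9 in both groups.

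The stretch before each start site was read from RefSeq promoter windows of 250 bases before to 50 bases after the start (GRCm38.p6), which matched all 9 genes. Letters were searched on both strands, and no hit overlapped that of another motif. The NF-Y box CCAAT was in 8 of the 9 windows, against 38.7% of the 8549 windows of tested genes, and the Sp1 box GGGCGG was in 9 of 9, against 64.8%. The E-box CACGTG was in 2, those of Hsd17b7 and Sc5d, against 10.6%, and the sterol element core TCACNCCAC was in 0, against 1.15%. Only this spelling of the sterol element was searched, so elements spelled otherwise, or outside the windows, would have been missed. Dhcr7 has 3 listed start sites, of which the first was counted and another holds CCAAT. Before the start site, 3 NF-Y boxes each lay in Msmo1 and Hsd17b7, 2 each in Nsdhl and Ebp, and 1 each in Lss, Cyp51, Tm7sf2 and Sc5d. The boxes of Msmo1 and Hsd17b7 are shown because these genes had the largest and the smallest change of the 9 with all libraries. Without Chow replicate 2 the log2 fold change of Ebp (-0.30) was smaller than that of Hsd17b7 (-0.38). Those of Lss, Cyp51 and Sc5d are shown for comparison. Each run is on the strand of its gene, with up to 12 bases on either side, and capitals mark CCAAT or its reverse, ATTGG.
Msmo1, 160 bases before the start (chr8:64733722-64733750): ccatccgcgcagCCAATgactggcgccgc
Msmo1, 96 bases before the start (chr8:64733658-64733686): ccttagcacggaCCAATcactgcacggcg
Msmo1, 55 bases before the start (chr8:64733617-64733645): gagtggggcggaCCAATtacgacaggcga
Hsd17b7, 165 bases before the start (chr1:169969354-169969382): gcgactgcctggATTGGctataggaccct
Hsd17b7, 73 bases before the start (chr1:169969262-169969290): tgccgagtcgcgATTGGcgggcctaacgc
Hsd17b7, 12 bases before the start (chr1:169969206-169969229): ggccgagccttgATTGGtcgaggt
Lss, 62 bases before the start (chr10:76531531-76531559): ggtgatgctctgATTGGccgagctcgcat
Cyp51, 29 bases before the start (chr5:4104710-4104738): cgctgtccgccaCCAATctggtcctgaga
Sc5d, 24 bases before the start (chr9:42264308-42264336): cgccggctgctgATTGGccggctgcctgc
The boxes read CCAAT along the gene in Msmo1 and Cyp51 and ATTGG in Hsd17b7, Lss and Sc5d. Msmo1 and Hsd17b7 each had 3 boxes, and whether the number of boxes goes with the size of the change was not tested.

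Once each group's mean was taken out, most of the 9 genes varied together from library to library. The Pearson correlation of a gene with the mean of the other 8 over the 10 libraries was 0.93 for Nsdhl, 0.91 for Cyp51, 0.86 for Dhcr7, 0.82 for Lss, 0.80 for Msmo1, 0.69 for Sc5d and 0.50 for Hsd17b7. It was 0.06 for Tm7sf2 and -0.26 for Ebp. Without Chow replicate 2, over 9 libraries, it was 0.95 for Sc5d, 0.73 for Hsd17b7, 0.63 for Tm7sf2 and 0.13 for Ebp. These values describe the libraries, which share their scaling and depth. Among other genes with a mean of at least 50 counts, Srebf2 was the most like the mean of the 9, with a correlation of 0.96 over 10 libraries and also 0.96 without Chow replicate 2. Next came Mau2, Hyal1, Gm6548, 4931406C07Rik, Slc46a3, Enc1, Tubgcp6, 9130011E15Rik and the squalene epoxidase gene Sqle, with correlations from 0.93 for Mau2 to 0.88 for Sqle. Of these 10, 5 were again among the 10 most alike without Chow replicate 2 and 4 without Chow replicate 4. Srebf2, Slc46a3 and Sqle fell in TM5614 and Enc1 rose (log2 fold change 1.28, SE 0.15, edgeR adjusted p = 0.000720), and the other 6 did not pass the test.

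Genes that serve the same steps were examined next. Of the 4 other late-pathway genes tested, 2 fell and 0 rose, among them Erg28, listed under the symbol 0610007P14Rik, a membrane scaffold of the methyl-removing complex (log2 fold change -0.77, SE 0.11, edgeR adjusted p = 0.00194). Among 6 electron donors and partners 4 fell and 0 rose, and their median log2 fold change was -0.55. Tmem97, a sterol-binding protein of the endoplasmic reticulum, changed most (-1.20), followed by Cyb5r3, the reductase that supplies cytochrome b5 (-1.02), the cytochrome Cyb5b (-0.56) and Por, the reductase that feeds Cyp51 (-0.54), with edgeR adjusted p-values from 0.00110 to 0.0431. Cyb5a and Pgrmc1 had log2 fold changes of -0.27 and -0.01 that did not pass.

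Upstream of Lss, 9 of the 10 genes tested from acetyl-CoA to squalene epoxide fell, and their median log2 fold change was -1.96, against -1.24 for the 9 later genes. Fdps (-2.99), Mvd (-2.95) and Sqle (-2.85), which make farnesyl diphosphate, isopentenyl diphosphate and squalene epoxide, had log2 fold changes near that of Msmo1, and Fdft1, squalene synthase, had -1.54. The difference between these lists was not tested. Of 7 genes of the SREBP machinery, 3 fell, Srebf1 (-1.84), the sterol-regulated anchor Insig1 (-1.62) and Srebf2 (-1.03), and 1 rose, the other anchor gene Insig2 (1.76, SE 0.20, edgeR adjusted p = 0.000549). The 5 tested genes of sterol uptake and transfer included 3 that fell, among them Stard4, a cytosolic sterol carrier (-1.43, SE 0.30, edgeR adjusted p = 0.0173). Another list held 12 genes taken as targets of the transcription factor LXR or for sterol efflux, esterification and bile acid synthesis. Only Soat2, which esterifies cholesterol, passed among them (-0.63, SE 0.14, edgeR adjusted p = 0.0262). The log2 fold changes of the 12 ran from -1.21 to 0.39, and 7 of the 12 had lower estimates in TM5614, so larger estimates than that of Soat2 did not pass. Over the 44 genes tested of these 6 lists, 22 fell and 1 rose.

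Genes of the circadian clock also differed between the groups, and the sterol pathway is known to cycle over the day in liver. Of 11 clock genes that peak with Dbp, 6 fell and 0 rose, led by Per3 (-2.27), Ciart (-2.08) and Dbp (-1.99). Of 4 tested that peak with Arntl, 2 rose, Arntl (2.76) and Clock (0.98), and 0 fell. The edgeR adjusted p-values of these 5 ran from 0.00179 to 0.00900. The hour at which each liver was taken is not given in the sources used here, and the part of the clock difference in the fall of the 9 genes was not tested.

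Marker genes of liver cell types were examined in the same fit. Among pericentral hepatocyte genes 4 of 10 fell, Lect2 (-0.83), Cyp1a2 (-0.66), Gulo (-0.65) and Rgn (-0.59), and Axin2 rose (0.90), with edgeR adjusted p-values from 0.00791 to 0.0317, while 0 of 8 periportal genes passed. The summed level of the pericentral list was 12400 to 18590 CPM in Chow and 11950 to 16740 CPM in TM5614. None of 9 Kupffer cell, 8 endothelial and 8 stellate cell genes passed, with median log2 fold changes of -0.50, -0.08 and 0.16. Kupffer cell markers summed to 74.4 to 244 CPM in Chow and 73.7 to 159 CPM in TM5614, and all 9 had lower estimates in TM5614. Cholangiocyte markers summed to 33.1 to 50.5 CPM in Chow and 27.3 to 74.4 CPM in TM5614, and 0 of the 3 tested passed. Lymphocyte markers summed to at most 3.90 CPM in any library. Of the erythroid list only Alas2 was tested and did not pass (-0.36), and 3 globin genes were listed at 0 throughout. TM5614 replicate 2, which held the muscle markers, was lowest of its group in 7 of the 9 genes, all but Tm7sf2 and Ebp. A link between its muscle markers and these low values was not tested. Without this library the same 6 of the 9 genes were called lower, where 373 of the 11196 genes tested were called in either direction. Log2 fold changes were then -2.53 for Msmo1 and -1.07 for Tm7sf2 (edgeR adjusted p = 0.00110 and 0.0306).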

How the data were processed

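Poly(A) RNA from 10 mouse livers was sequenced as single-end reads. Per the study's methods and the submitters' processing notes, reads were aligned with STAR to mm10 and counted per gene. The annotation, versions, strand and multi-mapping settings are not given in the sources used here. The authors deposited whole-number counts, not normalized, with totals of 6398335 to 10874955. They also deposited FPKM, counts per gene length and library, used here for levels between genes, and regularised log2 values from DESeq2, used here for an alternative. The deposited table of the authors' own comparison was not used. The fewer counts a gene has, the wider its counting error.

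Columns were matched to mice by number and groups were taken from titles. Genes were kept with filterByExpr, libraries scaled with TMM, and groups compared with edgeR 4.0.16 in R 4.3.3 (two-sided quasi-likelihood test by glmQLFit and glmQLFTest, without a block), with Benjamini-Hochberg adjustment over 11092 genes and a threshold of 0.05. Log2 CPM had a prior count of 2. Nothing in the labels says that mice were housed or collected in batches. Pairs of genes were tested by exact permutation. Tests of single genes were checked on simulated data in which 200 genes were changed. The share of calls that were false was 6.60% for edgeR, 6.81% with the replicate block, 7.61% for limma-voom and 17.8% for DESeq2. The simulated counts were drawn with the spread that edgeR had estimated. No simulated library stood apart through GC content, gene length or muscle genes, as both replicate 2 libraries did. These shares are therefore not error rates of the calls reported here. Replicate numbers were checked for pairing: deviations of same-numbered libraries correlated by 0.03 to 0.32, and not every pair was over 0.1. The least chi-square per degree of freedom between libraries of a group was 7.50, so none was a duplicate.

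The 9 genes, the lists and the motifs were chosen with earlier results of these data known. Named genes are the 9, Lbr, list genes past the threshold (at most 6 a list) and the 10 most alike. Some list genes are not reported here. Faxdc2 and Trbc2 were not matched. Alternatives were DESeq2 1.42.0, limma-voom (limma 3.58.1) with quality weights, RLE, upper-quartile or total scaling, other filters, robust dispersion, a replicate block, a fold change of 1.5 as the null, a stricter threshold of 0.01, a GC content and length spline, another prior count and each library left out. The removal of both replicate 2 libraries, the block with the spline, and the spline for gene pairs were added after the data were seen. Coordinates come from GENCODE M21.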

Additional observations from a re-analysis of the deposited data

Results flagged for a closer look

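Among 20 groups of 5 values (the 9 genes and Lbr in each of the 2 conditions), 2 held a library whose gap to its nearest neighbour exceeded 0.71 of the range of its group, where chance would give about 1.0. Ebp in Chow replicate 2 was at 351 CPM, and the gap was 0.83 of the Chow range. Hsd17b7 in TM5614 replicate 2 was at 42.8 CPM, and the gap was 0.72 of the TM5614 range. Both libraries stand apart in other ways given in the report, and the part of these in the 2 values was not tested.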

How the results depend on the processing

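The count of 9 pathway genes called stayed within 1.5 times its value of 6 under all alternatives. It was 8 under limma-voom and without both replicate 2 libraries, 7 under DESeq2, under the GC content and length correction with or without the replicate block and without Chow replicate 2, 5 at an adjusted p of 0.01 and 4 in the test against a fold change of 1.5, where Lss and Tm7sf2 did not pass (adjusted p = 0.121 and 0.293 in edgeR). The gene lost at an adjusted p of 0.01 was Tm7sf2 (adjusted p = 0.0111 in edgeR). Apart from that threshold and the test against a fold change of 1.5, there were 22 alternatives. Lss, Cyp51, Tm7sf2, Msmo1, Nsdhl and Dhcr7 kept direction and call under all 22. Hsd17b7 changed sign without Chow replicate 3, and its log2 fold change ranged from -0.38 to 0.0562 as libraries were left out. The 23 called genes of the other sterol lists became 11 in the test against a fold change of 1.5. Over all genes the count was 908 with DESeq2, 1386 with limma-voom, 78 in the test against a fold change of 1.5, 184 at an adjusted p of 0.01 and 1230 without both replicate 2 libraries. It ranged from 235, without TM5614 replicate 3, to 1031, without Chow replicate 2, and was 293 without Chow replicate 3, 331 without TM5614 replicate 1 and 259 without TM5614 replicate 4. The 25 gene pairs became 29 under the GC content and length correction and 23 to 26 as libraries were left out. The 10 most alike genes shared 4 to 9 with those found as libraries were left out, and 4 to 6 without Chow replicates 2, 3 or 4 or TM5614 replicates 4 or 5.

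With the replicate number as a block, the same 6 pathway genes, 23 other sterol genes and 555 genes in all were called. The paired sign-flip test of gene pairs cannot give a p below 0.0625, so 0 pairs could pass. The numbers were not shown to pair the mice. Depth is among the limits on the precision of Lss and Nsdhl, whose lowest libraries held 98 and 53 counts. The spread between mice is another, with an SD of log2 CPM in Chow of 0.49 for Lss and 0.53 for Nsdhl (n = 5).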
